A study of Bos taurus with 90 samples.

Results

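MiR-21-5p and miR-21-3p, the 2 mature arms of bovine miR-21, were followed through 5 tissues of dairy cows fed 3 forages, together with the ratio of the 2 arms in each sample. They were found by their row names and are 2 of the 388 miRNAs listed in any tissue and 2 of the 289 listed in all 5. Small RNA had been sequenced after slaughter from 5 tissues of mid-lactation Chinese Holstein cows, a milk breed. These were liver, mammary gland and, by the labels, the epithelium of rumen, duodenum and jejunum, the last 2 being parts of the small intestine. The cows had been fed a diet based on rice straw, alfalfa hay or corn stover, and each tissue and diet had 6 samples, so that a tissue had 18 samples and the series analysed here had 90. The design gives 6 cows per diet and all 5 tissues from each cow, but no label ties a number to a cow. Every cow was lactating, none was unfed or free of forage, and the ages and the other parts of the diets were not given in the sources used here.

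A miRNA gene is copied into a hairpin, the hairpin is cut by Drosha and Dicer into a short duplex, and an Argonaute protein keeps either strand of it, the other usually being lost. The strand from the 5′ side of the hairpin is named 5p and the strand from the 3′ side 3p. Both arms of a hairpin therefore start from the same transcript, and their ratio in steady state reflects which strand is kept and how long each lasts. MiR-21-5p is the usual guide strand, is abundant in most tissues, and is known for rising in growing, injured and inflamed tissue, whereas miR-21-3p is the passenger strand of the older naming (miR-21*). In the RefSeq annotation of the cow (assembly ARS-UCD2.0) the gene MIR21 lies next to VMP1, which encodes a membrane protein of autophagy, and its other neighbour is TUBD1, which encodes a tubulin.

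The values are CPM, the reads of a miRNA scaled to a fixed total of all reads mapped to annotated miRNAs of that library, with no division by length. The libraries held between 937556 and 15621501 mapped reads, with a median of 5778304.5. The widest range was in mammary gland, from 937556 to 14328839. Neither arm was at 0 in any library, and the fewest reads behind a value were 49 for miR-21-3p, in mammary gland. As a check of the tissues, miR-122, the defining miRNA of hepatocytes, had between 8671 and 12721 CPM in liver. It was not listed in rumen, duodenum and jejunum, and reached at most 48.5 CPM in mammary gland. The summed intestinal miRNAs miR-192, miR-194 and miR-215 had at least 144396 CPM in duodenum and jejunum and at most 4561 in rumen and 3714 in mammary gland, while liver, which also makes them, had at least 122056. MiR-205, a miRNA of stratified epithelium, had between 23016 and 52132 CPM in rumen and at most 5.07 in duodenum. In liver it had between 6.24 and 13.0 CPM under corn stover and at most 1.36 under rice straw. The source of that difference was not tested. Under alfalfa hay miR-205 had at most 2.05 CPM in liver apart from 1525 in replicate 2. That library also had the highest summed epithelial miRNAs (1896 CPM) and immune cell miRNAs (10633 CPM) of liver, as well as its highest level of both arms. Without it every tissue call and every diet result of liver stayed on its side of the threshold, and the highest liver levels were 17742 CPM for miR-21-5p and 123 CPM for miR-21-3p. The libraries labelled epithelium also held the smooth muscle list (miR-143, miR-145, miR-1 and miR-133a). Its sum was 118255 to 244048 CPM in rumen, 105768 to 215445 in duodenum and 147342 to 297235 in jejunum. It was 82524 to 177678 CPM in liver and 70889 to 228766 in mammary gland. In such bulk tissue, fewer cells of a type and less RNA per cell cannot be told apart. The fits treated the samples as independent although the 5 tissues came from the same cows, and the p-values measure the spread between these samples.

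MiR-21-5p was among the most abundant miRNAs of every tissue, and its order was rumen, duodenum, jejunum, mammary gland and liver. In rumen the lowest, median and highest of the 18 samples were 40717, 70095 and 109901 CPM, the mean was 75982 ± 18024 (SD, n = 18), and the miRNA ranked 4 of 340 by mean level. In duodenum the same values were 28258, 42101 and 48282 CPM, with a mean of 41203 ± 5054 (SD, n = 18) and rank 5 of 338. In jejunum they were 27223, 38808 and 49577 CPM, with a mean of 37509 ± 6381 (SD, n = 18) and rank 6 of 337. Duodenum and jejunum covered nearly the same range, and 1 of the 18 rumen samples reached down into it. Mammary gland ran from 12837 through a median of 35103 to 51621 CPM, with a mean of 32220 ± 9285 (SD, n = 18) and rank 6 of 328. Liver ran from 10236 through 13273 to 19667 CPM, with a mean of 13804 ± 2763 (SD, n = 18) and rank 13 of 330. No liver sample reached any sample of the 3 gut tissues, whereas the lowest mammary samples lay in the liver range. A single miRNA thus took 7.60% of the mapped miRNA reads in rumen and 1.38% in liver on average.

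MiR-21-3p was a miRNA of middle rank, and its order over the tissues was another. In rumen its lowest, median and highest values were 167, 824 and 1255 CPM, its mean was 809 ± 295 (SD, n = 18), and it ranked 77 of 340. In jejunum they were 78.7, 124 and 364 CPM, with a mean of 148 ± 78.7 (SD, n = 18) and rank 124 of 337. In duodenum they were 69.3, 90.7 and 128 CPM, with a mean of 91.1 ± 16.7 (SD, n = 18) and rank 142 of 338. Rumen and duodenum did not overlap, and the lowest rumen value lay within the jejunum range. Mammary gland ran from 31.8 through 58.9 to 253 CPM, with a mean of 81.3 ± 62.1 (SD, n = 18), and liver from 42.9 through 75.3 to 146 CPM, with a mean of 80.1 ± 27.5 (SD, n = 18). In both of these tissues it ranked 147 by mean level. Relative to its mean, miR-21-3p varied most in mammary gland, with a coefficient of variation of 76.3% against 28.8% for miR-21-5p.

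**Figure D1:**
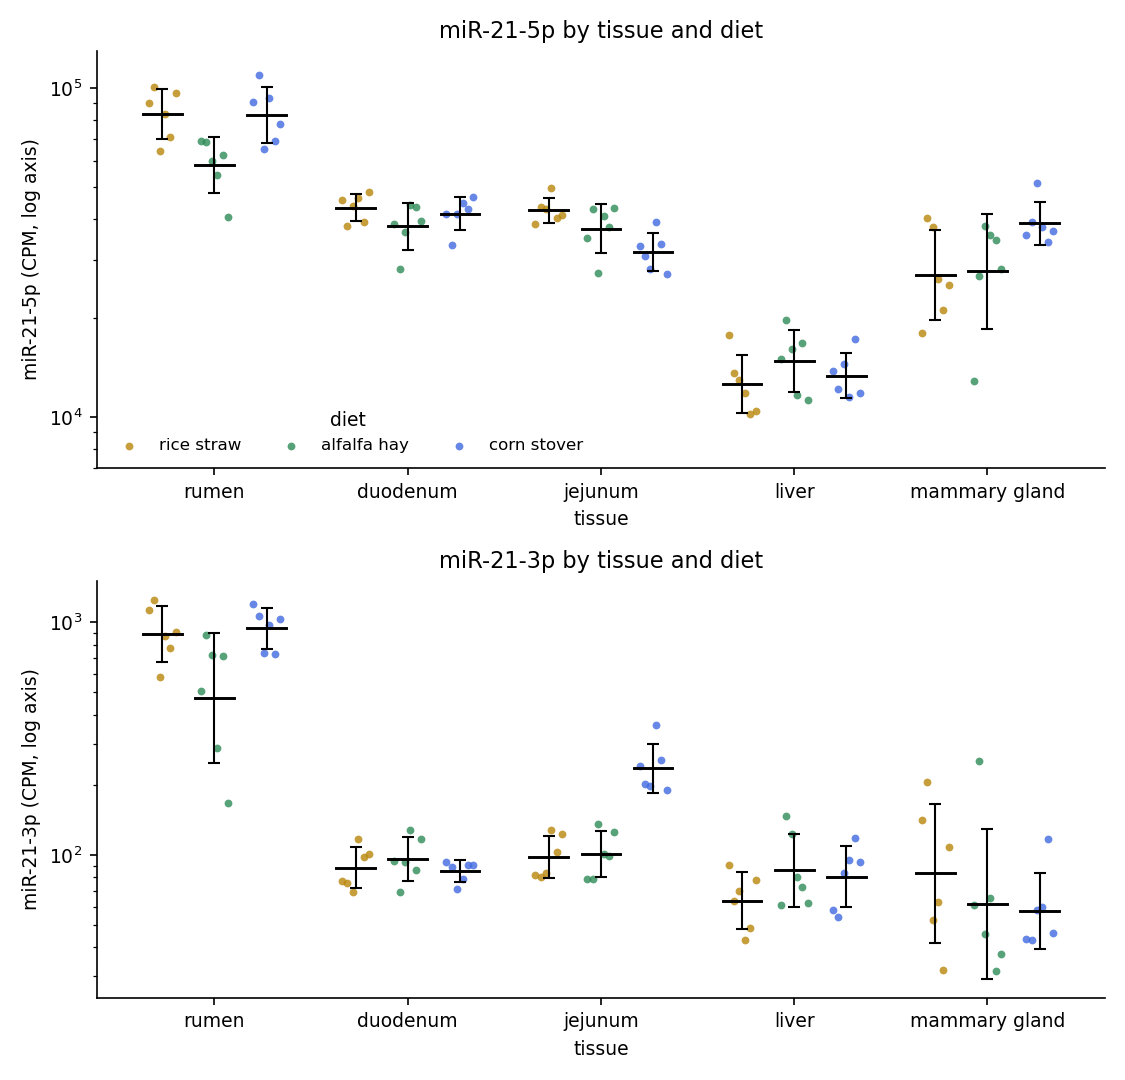
CPM of miR-21-5p (upper panel) and miR-21-3p (lower panel) on log axes, by tissue and, in colour, by diet. Each point is a sample, and the bars give the mean ± SD of the log values of 6 samples. The rumen samples sit highest in both panels, liver lowest for miR-21-5p, and the 6 corn stover samples of jejunum stand above the other jejunum samples for miR-21-3p only.

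The tissues were compared in pairs with limma, a linear model fitted to log2(CPM + 1) of all 289 miRNAs listed in the 5 tissues, and p-values were adjusted by Benjamini-Hochberg over the 289 with a threshold of 0.05. Differences below are on that log2 scale with their standard errors (SE). MiR-21-5p was higher in rumen than in duodenum by 0.85 (SE 0.10, limma adjusted p = 8.75e-13), a contrast in which 72.7% of all miRNAs differed. It was higher in rumen than in jejunum by 0.999 (SE 0.10, adjusted p = 1.40e-15 by limma, 75.8% of miRNAs called). The rumen excess was 1.27 over mammary gland (limma adjusted p = 9.57e-21, 84.8% called) and 2.45 over liver (limma adjusted p = 4.69e-39, 84.4% called). The mean level was 5.50 times that of liver and 1.84 times that of duodenum, the next tissue. With upper-quartile scaling the log2 difference was 1.73 from liver and 0.67 from duodenum. With trimmed-mean (TMM) scaling it was 2.01 from liver and 0.58 from duodenum. Most miRNAs differed between most tissues, so a call by itself sets miR-21-5p apart from few others.

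Duodenum and jejunum, the neighbours in the order, did not differ in miR-21-5p beyond their spread (difference 0.14, 95% interval -0.05 to 0.34, limma adjusted p = 0.398), in a contrast where 11.4% of miRNAs were called. Jejunum was above mammary gland by 0.27 (limma adjusted p = 0.0103, 81.3% called) and duodenum was above it by 0.41 (limma adjusted p = 0.000108, 82.7% called). The jejunum difference was -0.29 among the corn stover samples alone (limma adjusted p = 0.0404) and 0.66 among the rice straw samples alone. The duodenum difference was 0.097 among the corn stover samples (limma adjusted p = 0.481) and 0.45 among the alfalfa hay samples (limma adjusted p = 0.0577), and only the rice straw value of 0.68 passed. Liver lay below duodenum by 1.59 and below jejunum by 1.45 (limma adjusted p of at most 4.36e-24), contrasts with 82.7% and 84.8% of miRNAs called. Liver lay below mammary gland, with a log2 difference of -1.18 (limma adjusted p = 4.11e-19, 70.2% called). In all, 9 of the 10 tissue pairs passed for miR-21-5p.

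For miR-21-3p the rumen stood much further from the rest. Its rumen excess was 3.02 (SE 0.18) over duodenum, 2.46 over jejunum, 3.26 over liver and 3.45 over mammary gland (limma adjusted p of at most 1.28e-21). On the linear scale the rumen mean was 8.88 times that of duodenum, 5.45 times that of jejunum, 10.1 times that of liver and 9.95 times that of mammary gland. With the 2 alfalfa hay libraries of rumen that had the lowest miR-21-3p left out, the excess over duodenum was 3.21. The 4 rumen differences also passed within each diet alone, for either arm. Jejunum was above duodenum by 0.56 (limma adjusted p = 0.0294), above liver by 0.80 and above mammary gland by 0.98. The first of these was 1.46 among the corn stover samples and 0.15 and 0.07 among the rice straw and alfalfa hay samples, written as -1.46, -0.15 and -0.07 for duodenum minus jejunum, and only the corn stover value passed (limma adjusted p = 5.17e-06). Jejunum minus liver was 1.54 among corn stover samples and did not pass among rice straw (0.62) or alfalfa hay samples (0.23), nor over all samples with upper-quartile scaling (0.25). Jejunum minus mammary gland was 2.02 among corn stover samples and did not pass among the others (0.23 and 0.70). Duodenum passed against mammary gland (0.42, limma adjusted p = 0.0283) but not with edgeR (0.14, adjusted p = 0.514), with upper-quartile scaling (0.29), or among rice straw (0.081) or alfalfa hay samples (0.62) alone. It did not pass against liver (0.24, 95% interval -0.13 to 0.60, limma adjusted p = 0.223). Liver and mammary gland, the lowest in the order, did not differ beyond their spread (0.19, 95% interval -0.17 to 0.55, limma adjusted p = 0.342). In all, 8 of the 10 pairs passed for miR-21-3p, and 4 of them, those of rumen, under every alternative tried.

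The number of miR-21-5p reads for each miR-21-3p read put the tissues in an order that neither arm gave alone. Its lowest, median and highest values were 75.1, 92.8 and 244 in rumen. In liver they were 121, 183 and 276, so that liver, with the least miR-21-5p, was second in its share of the 3p arm. In jejunum they were 107, 363 and 544, in duodenum 339, 457 and 629, and in mammary gland 106, 646 and 1087. No duodenum sample overlapped rumen or liver. The mammary range covered the ranges of duodenum, jejunum and liver in full. Expressed as a share, miR-21-3p made up 1.03% ± 0.26 (SD, n = 18) of the reads of both arms in rumen and 0.223% ± 0.041 (SD, n = 18) in duodenum. The ratio sets reads of 2 different sequences against each other and was not calibrated, so only its change between samples is described.

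On the log2 scale, with 1 CPM added to each arm, the mean ratio was 6.65 ± 0.46 in rumen, 7.46 ± 0.37 in liver, 8.11 ± 0.83 in jejunum, 8.82 ± 0.27 in duodenum and 8.83 ± 1.05 in mammary gland (SD, n = 18 each). The log2 ratios of 22 miRNAs with both arms listed in all tissues were fitted together by limma, with p-values adjusted over the 22. For miR-21 the rumen ratio was lower than that of duodenum by 2.17 (written -2.17, SE 0.18, limma adjusted p = 8.27e-19) in a contrast where 50% of the arm ratios were called. Against mammary gland the rumen difference was -2.18 (limma adjusted p = 6.01e-19, 72.7% called), and against jejunum it was -1.46 (limma adjusted p = 2.90e-11, 50% called). Against liver it was -0.81 (limma adjusted p = 7.09e-05, 77.3% called), and among the alfalfa hay samples alone it was -0.47 and did not pass (limma adjusted p = 0.377). Each of these 4 rumen differences also passed a two-sided permutation test of the miR-21 ratio alone, and for 3 of them the p of 1e-05 was the smallest that 100000 resamples can give.

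Duodenum had the higher ratio by 1.36 over liver (limma adjusted p = 2.15e-10, 68.2% called) and by 0.70 over jejunum (SE 0.18, limma adjusted p = 0.00423). MiR-21 was the only 1 of the 22 arm ratios called between duodenum and jejunum, which is 4.55%. Within diets that difference was 1.84 for corn stover (limma adjusted p = 4.14e-09), 0.18 for rice straw and 0.09 for alfalfa hay, and the last 2 did not pass. Jejunum was above liver by 0.65 (limma adjusted p = 0.00113, 59.1% called) and below mammary gland, with a difference of -0.72 (limma adjusted p = 0.000411, 59.1% called). The limma fit took 1 spread for all tissues, although mammary gland varied most. In the permutation test of the miR-21 ratio alone the adjusted p was 0.00611 against liver and 0.0331 against mammary gland. Both differences turned with the diet, since jejunum minus liver was -0.29 among corn stover samples and jejunum minus mammary gland was 0.43 among rice straw samples. Liver was below mammary gland (-1.37, limma adjusted p = 2.32e-10, 63.6% called). Duodenum and mammary gland, with nearly equal means, did not differ beyond their spread (-0.01, 95% interval -0.37 to 0.35, limma adjusted p = 0.953), where 54.5% of the ratios were called.

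**Figure D2:**
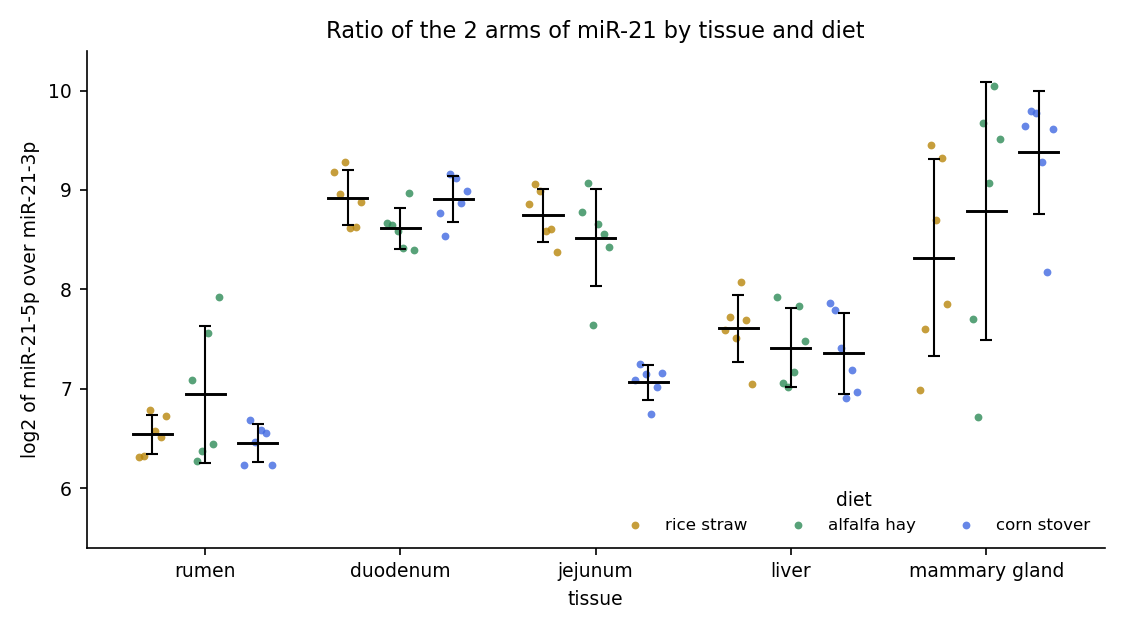
Log2 of the miR-21-5p level over the miR-21-3p level (vertical axis), by tissue and, in colour, by diet. Points are samples and bars the mean ± SD of 6 samples. Jejunum under corn stover falls to the level of rumen and liver, 10 of the other 12 jejunum samples lie in the range of duodenum and 2 below it, and mammary gland spreads widest.

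Among the 22 arm pairs, miR-21 had the third widest range of tissue means, 2.18 against a median of 1.05. The wider ones were miR-193a with 2.62 and miR-425 with 2.21. MiR-21 passed in 9 of the 10 tissue pairs, as did miR-345, and none of the 22 passed in more, the median being 6. The 3 pairs whose mean ratio over the tissues was nearest to the 7.97 of miR-21 were let-7a with 7.44, miR-30b with 9.32 and miR-6119 with 6.04. Their tissue means spanned 0.73, 0.52 and 0.52, and they passed in 4, 1 and 4 tissue pairs. The 5p arm was the major arm in 15 of the 22 pairs. Rumen was the lowest of the 5 tissues for 8 of the 22 pairs, miR-21 and miR-6119 among them.

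**Figure D3:**
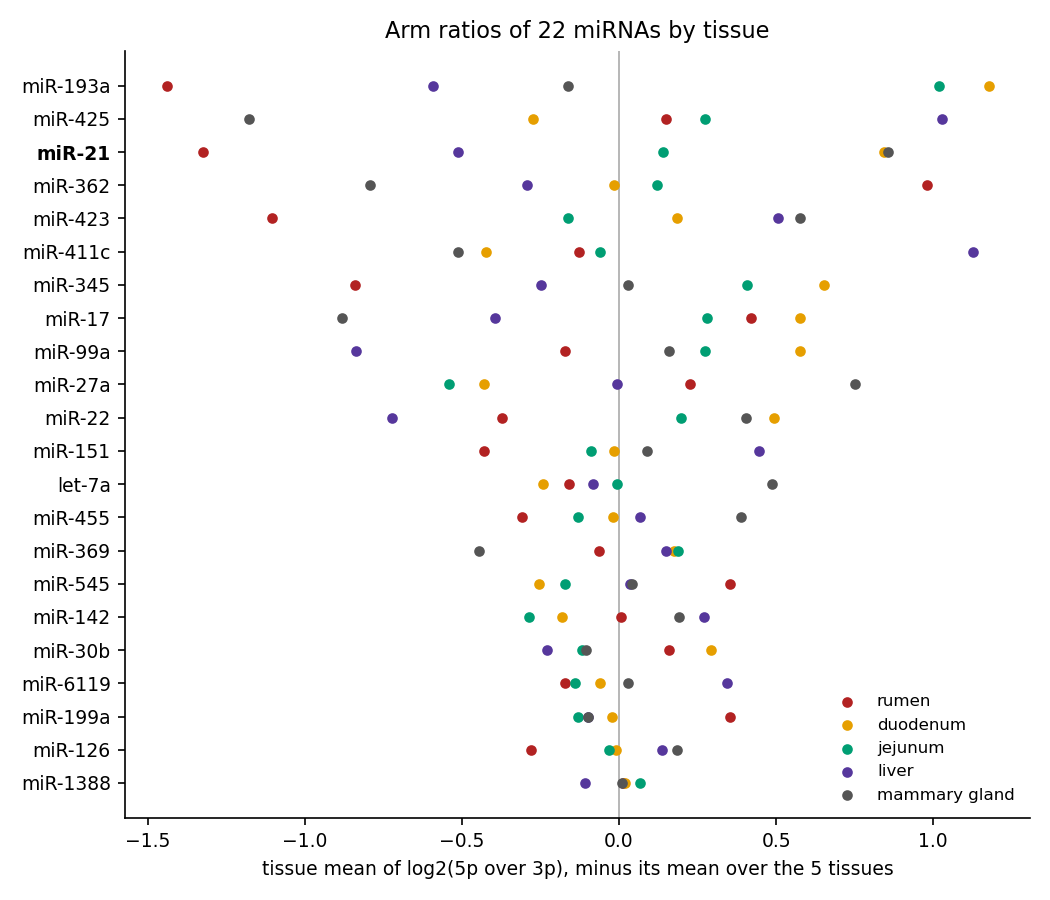
Mean log2 ratio of the 5p over the 3p arm in each tissue, relative to the mean over the 5 tissues (horizontal axis), for 22 miRNAs in order of the range of their tissue means. A point is a tissue mean of 18 samples. MiR-21 is the third from the top, with rumen at the left and duodenum and mammary gland together at the right.

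Diets were compared within each tissue, by limma over all miRNAs listed there, with an F test over the 3 diets. Both arms and their ratio passed in jejunum and in no other tissue. The F test called 23.7% of the 337 miRNAs of jejunum, so the change of miR-21 was part of a wider one. It called 1.47% in rumen, 3.66% in mammary gland, and 0% in duodenum and liver, where limma found 37 of 338 and 17 of 330 miRNAs at an unadjusted p under 0.05 and edgeR on recovered reads also found 0. For arm ratios the F test called 44.4% of 27 in jejunum, 3.7% of 27 in rumen, 3.7% of 27 in duodenum, 0% of 29 in liver and 0% of 25 in mammary gland.

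In jejunum, miR-21-3p was higher under corn stover. Its lowest, median and highest values were 190, 221 and 364 CPM under corn stover. Under rice straw they were 80.7, 93.1 and 128 CPM, and under alfalfa hay 78.7, 99.9 and 136 CPM. Every corn stover sample lay above every sample of the other diets. The mean under corn stover, 242 ± 65.3 CPM (SD, n = 6), was 2.42 times that under rice straw and 2.35 times that under alfalfa hay. The log2 differences were 1.26 (SE 0.18, limma adjusted p = 3.19e-05) against rice straw, where 28.8% of miRNAs were called, 31 of them higher and 66 lower. Against alfalfa hay it was 1.22 (limma adjusted p = 5.00e-05), where 22% were called, 27 higher and 47 lower. Rice straw and alfalfa hay did not differ beyond their spread (0.04, 95% interval -0.34 to 0.42).

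MiR-21-5p went the other way in the same libraries. It ran from 27223 through 31917 to 39093 CPM under corn stover, from 38523 through 42040 to 49577 under rice straw and from 27338 through 39319 to 43229 under alfalfa hay. The corn stover samples overlapped the others. The level was lower under corn stover than under rice straw, with a log2 difference of -0.42 (SE 0.12, limma adjusted p = 0.0155), and against alfalfa hay the difference was -0.24 (95% interval -0.49 to 0.02, limma adjusted p = 0.154). The F test over the diets gave an adjusted p of 0.0420 by limma, and 0.0741 with trimmed-mean (TMM) scaling and 0.0698 with edgeR on recovered reads, and it did not pass under either.

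The ratio joins these changes. It was 107, 139 and 153 (lowest, median and highest) under corn stover, 334, 431 and 541 under rice straw and 201, 394 and 544 under alfalfa hay, with no overlap between corn stover and the others. The log2 ratio differed by -1.68 (SE 0.19, limma adjusted p = 3.37e-07) from rice straw, with 29.6% of arm ratios called, and by -1.45 (limma adjusted p = 3.00e-06) from alfalfa hay, with 40.7% called. In an exact two-sided permutation test of the miR-21 ratio alone both contrasts gave p = 0.00216, the smallest that 6 samples against 6 allow, and 0.00325 after adjustment over the 3 diet pairs of the tissue. A scaling of the libraries can change the ratio only through the 1 CPM added. Of the 22 pairs, miR-423, miR-345, miR-99a, miR-17 and miR-22 also had lower ratios under corn stover than under both other diets, by between -0.66 and -1.09, and miR-425 had a higher one (0.87 and 0.96). By mean ratio over the tissues the minor arm was 5p for miR-423, miR-345 and miR-22, and 3p for miR-99a and miR-17, as for miR-21. A lower ratio is thus a lower share of the minor arm in the former and a higher share in the latter.

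Other miRNAs of jejunum moved beside the arms. Under corn stover the summed endothelial miR-126-5p and miR-126-3p lay between 8000 and 17708 CPM, below the 18498 to 29441 of the other diets, and both members were lower by limma against either diet. Of the 4 smooth muscle miRNAs 2 were lower against either diet, while their sum, which ran from 184735 to 297235 CPM under corn stover, overlapped the 147342 to 247253 of the others. Of all miRNAs 28.8% were called against rice straw and 22% against alfalfa hay. Of the 5 immune cell miRNAs (miR-142-5p, miR-142-3p, miR-150, miR-155 and miR-223) 1 was lower against rice straw, with sums of 18568 to 29324 CPM against 20154 to 31481. No member of the epithelial list (miR-200a, miR-200b, miR-200c, miR-141 and miR-429) or of the intestinal list passed. The part of these lists in the change of miR-21-3p was not tested.

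A list of miRNAs known to be induced in inflammation (miR-146a, miR-146b, miR-155, miR-147, miR-221, miR-222 and miR-31) was set beside miR-21. The list was chosen with earlier results of these data known, so its counts are given as a description and are no test of inflammation. Against rice straw, jejunum under corn stover had 1 of 7 higher and 4 of 7 lower, where 31 of all 337 miRNAs were higher and 66 lower. The higher one was miR-222 (0.40), and miR-146a (-0.98), miR-146b (-1.05), miR-155 (-0.38) and miR-31 (-2.21) were lower, with limma adjusted p between 0.00472 and 0.0365. Against alfalfa hay 1 of 7 was higher and 2 of 7 were lower (27 and 47 of all 337), and miR-155 (-0.17) and miR-31 (-1.74) did not pass (limma adjusted p = 0.307 and 0.0990). In rumen the same list was higher for 7 of 7 against mammary gland, 6 of 7 against liver, and 4 of 7 against both duodenum and jejunum. Of all 289 miRNAs, 147 were higher in rumen than in mammary gland, 159 than in liver, and 130 than in duodenum and likewise in jejunum, so the last counts were near the background. MiR-146a and miR-155 were lower in rumen than in duodenum (-1.62 and -0.95) and jejunum, while miR-147 and miR-31 were higher there than in duodenum by 4.06 and 3.78. The median difference of the list against duodenum was 0.39, and that of all 289 miRNAs was 0.19.

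In the other tissues neither arm nor the ratio passed between diets. In rumen, miR-21-5p ran from 40717 to 69137 CPM under alfalfa hay, from 64557 to 100886 under rice straw and from 65322 to 109901 under corn stover. The log2 difference of alfalfa hay from rice straw was -0.51 (95% interval -0.84 to -0.19, limma adjusted p = 0.0706), and for miR-21-3p it was -0.92 (95% interval -1.59 to -0.25, limma adjusted p = 0.0922). The alfalfa hay group was uneven. Its replicates 1, 4 and 6 had 508, 288 and 167 CPM of miR-21-3p, below every sample of the other diets, and ratios of 136, 189 and 244, above every one of them, whereas its replicates 2, 3 and 5 had ratios between 77.5 and 87.3, within the range of the other diets. Replicates 4 and 6 also had the least of the summed immune cell miRNAs in rumen, 2931 and 3108 CPM, with at least 5681 in each of the other 16. The part of this list in their miR-21-3p level was not tested.

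In duodenum, miR-21-3p differed by 0.12 between alfalfa hay and rice straw (95% interval -0.21 to 0.44) and by -0.05 between corn stover and rice straw (95% interval -0.37 to 0.28), and the difference of 1.26 in jejunum lay outside the latter interval. Duodenum had the smallest SD of the log2 ratio of the 5 tissues, and its diet means were 499, 400 and 492 reads of miR-21-5p per read of miR-21-3p for rice straw, alfalfa hay and corn stover. In liver, miR-21-5p had medians of 12388, 15555 and 12956 CPM and miR-21-3p of 66.6, 76.6 and 88.6 CPM under rice straw, alfalfa hay and corn stover, and all groups overlapped. The corn stover minus rice straw differences were 0.09 for miR-21-5p (95% interval -0.23 to 0.41) and 0.34 for miR-21-3p (95% interval -0.19 to 0.87). In mammary gland the medians in the same order were 25804, 31406 and 37228 CPM for miR-21-5p and 85.2, 53.2 and 52.1 CPM for miR-21-3p, and again all groups overlapped. The differences there were 0.52 (95% interval -0.04 to 1.08) and -0.54 (95% interval -1.55 to 0.48), and that of the ratio was 1.06 (95% interval -0.05 to 2.17, limma adjusted p = 0.153). In this contrast limma called 25% of all 328 miRNAs, 77 higher and 5 lower, and edgeR called 50. The median difference of all 328 was 0.63. With TMM scaling the values were -0.22 for miR-21-5p and -1.27 for miR-21-3p, and with upper-quartile scaling -0.40 and -1.44, none of which passed. On simulated data with 60 miRNAs drawn at random and changed by 1 on the log2 scale, the F test recovered 58 in jejunum and 57 in duodenum. It recovered 47 in liver, 44 in rumen and 7 in mammary gland, with 2, 5, 0, 2 and 0 false calls in the same order. On these simulated data the F test thus missed a shift of this size in 1 diet for most of the changed miRNAs in mammary gland. The pairwise diet contrasts were not simulated, and the recovery of either arm was not measured.

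Whether the diet differences themselves differed between tissues was tested by a tissue by diet interaction across all 90 samples. It passed for miR-21-5p (limma adjusted p = 0.00425) and for miR-21-3p (limma adjusted p = 0.00277), among 45.7% of the 289 miRNAs. It also passed for the ratio (limma adjusted p = 6.20e-05), among 50% of the 22 arm ratios. With TMM scaling the value for miR-21-5p was 0.0703 by limma.

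Mammary gland held the widest ratio of all tissues, from 106 to 1087. MiR-21-3p was 0.0919% of the reads of both arms in the alfalfa hay library with the least (95% Wilson interval 0.0822% to 0.103%, counting error only) and 0.936% in another alfalfa hay library, with the most (95% Wilson interval 0.898% to 0.975%). Of the 22 arm pairs, 17 had their largest SD between samples in mammary gland, and miR-21 was sixth there with 1.05 against a median of 0.75. In jejunum miR-21 had the largest SD of the 22 (0.83 against a median of 0.36), taken over diets whose means differed by up to 1.68, and within diets its SD was 0.27 under rice straw, 0.48 under alfalfa hay and 0.18 under corn stover. In rumen, duodenum and liver it lay in the middle, at ranks 11, 12 and 10.

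The 2 arms rose and fell together in some tissues. Across the 18 samples of rumen, Pearson's r of their log2(CPM + 1) was 0.87 and Spearman's rho 0.87 (permutation p = 1e-05 for each, the smallest that 100000 resamples can give, and 5e-05 adjusted over 5 tissues). It was 0.80 without the 2 samples farthest from the median of miR-21-5p and 0.78 within diets. In liver r was 0.60 (permutation p = 0.00918, adjusted 0.0229) but rho was 0.44 (permutation p = 0.0668, adjusted 0.111), and r was 0.44 without the 2 farthest samples, so the relation rests in part on those. Without alfalfa hay replicate 2 alone, r was 0.48 (permutation p = 0.0544) and rho 0.34 (permutation p = 0.183). In duodenum r was 0.30 (rho 0.25, permutation p = 0.228 and 0.313, adjusted 0.285 and 0.392), and 0.07 without the 2 farthest. In mammary gland r was -0.13 (rho -0.18, permutation p = 0.607 and 0.481, adjusted 0.607 and 0.481), and -0.04 without the 2 farthest. In jejunum the corn stover samples stood apart, so no value over all 18 is given. Within the 6 corn stover samples r was 0.96 and rho 1 (exact permutation p = 0.00278 for each, adjusted 0.00556 over the 2 sets). Within the other 12 r was -0.15 and rho 0.08 (permutation p = 0.683 and 0.800, the adjusted values being the same).

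**Figure D4:**
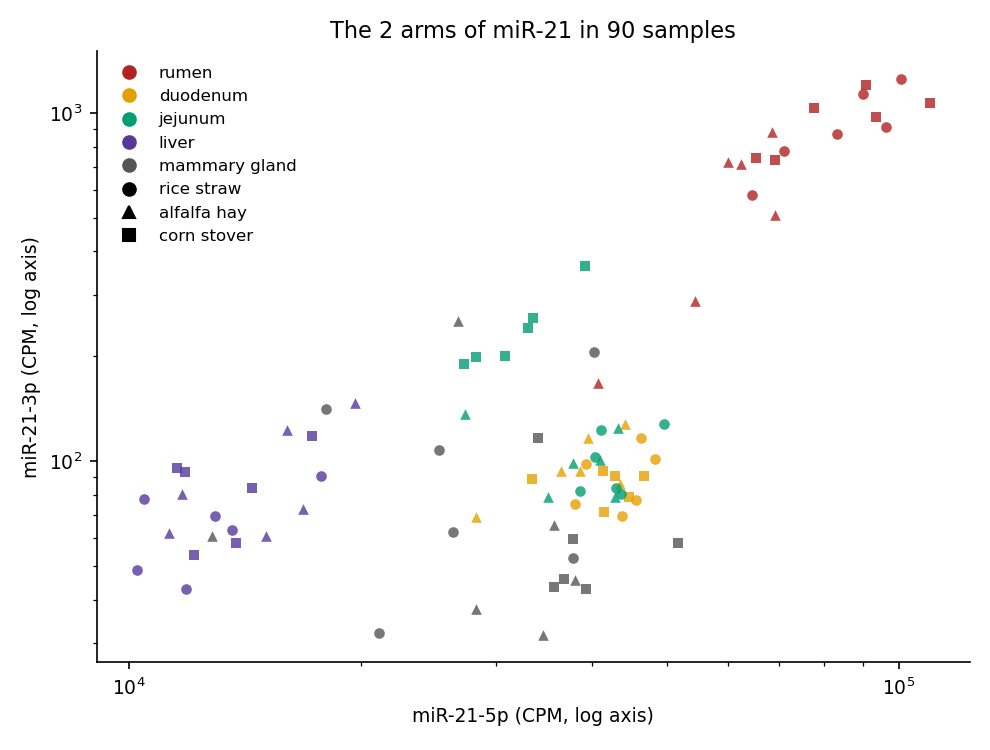
MiR-21-3p (vertical axis, CPM) against miR-21-5p (horizontal axis, CPM) on log axes, 1 point per sample, with colour for tissue and shape for diet. Rumen forms a rising band at the upper right, the corn stover squares of jejunum lie above the other jejunum points, and the mammary points scatter from 31.8 to 253 CPM of miR-21-3p.

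The ratio was set against the total of mapped reads and against the summed immune cell and epithelial lists in each tissue, 15 relations in all, chosen after the values were seen. By Pearson's r 1 passed, that with the immune cell list in rumen (r = -0.80, permutation p = 0.00157, adjusted 0.0235). Its Spearman's rho was -0.42 (permutation p = 0.0803, adjusted 0.401), and r was -0.23 without the 2 samples farthest from the median of the list, so it rests on those samples. The next relation by size was with the same list in jejunum and had the opposite sign. It did not pass (adjusted permutation p of Pearson's r = 0.0550), and r was 0.31 within diets. With the total of mapped reads r lay between -0.25 in liver and 0.30 in rumen, and no adjusted permutation p of these r was under 0.614. Within diets it lay between -0.37 in liver and 0.53 in jejunum, where the corn stover samples stood apart, and these values were not tested.

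The miRNAs most like each arm were found by Pearson's r of log2(CPM + 1) over the 90 samples, which share tissues, diets and cows, and the values are given as a description. Nearest to miR-21-5p were miR-429 (0.92), miR-23a (0.91), miR-378c (0.88), miR-221 (0.88) and miR-25 (0.87). MiR-429, an epithelial miRNA of the miR-200 family, averaged 2577 CPM in rumen, 1098 in duodenum, 1003 in jejunum, 824 in mammary gland and 70.2 in liver. The epithelial list as a whole had another order. Its sum had a median of 42444 CPM in mammary gland and 18451 in rumen. In rumen 1 of its 5 members was higher than in mammary gland and 3 were lower, where 147 of all 289 miRNAs were higher and 98 lower. Nearest to miR-21-3p were miR-147 (0.85), miR-27b (0.81), miR-378c (0.79), miR-27a-3p (0.78) and miR-6523 (0.77). MiR-147 averaged 688 CPM in rumen and between 11.7 and 48.5 in the other tissues, and the separate values of the near-identical miR-27a-3p and miR-27b are uncertain. The arms were less like each other than like these, with r of 0.66, which put miR-21-3p at place 60 for miR-21-5p and miR-21-5p at place 20 for miR-21-3p.

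With each tissue and diet mean removed, so that only differences between samples of a group were left, other miRNAs came first. For miR-21-5p they were miR-106b (0.76), miR-93 (0.75), miR-30e-5p (0.74), miR-181c (0.71) and miR-27a-3p (0.71). For miR-21-3p they were miR-18a (0.54), miR-363 (0.46), miR-142-5p (0.45), miR-191 (0.45) and miR-126-5p (0.43). The arms had r of 0.28 with each other on this scale. No miRNA was in both lists.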

How the data were processed

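Small RNA libraries of 90 samples (5 tissues, 3 diets, 6 per group) were analysed, and the samples of beef steers, sera and exosomes of the study were not analysed here. Tissues, diets and replicate numbers came from the labels, which name no sequencing batch. Per the methods and the submitters' processing notes, which name CASAVA 1.8, reads were filtered for quality, trimmed of adaptors and aligned to bovine miRNA precursors of miRBase with sRNAbench, and the authors deposited a value per miRNA and sample. The methods call the deposited values read counts, but they are not whole, they sum to between 999560 and 999981 in each sample, and 2 column headers say CPM, so they were taken as CPM of all reads mapped to annotated miRNAs. Alignment allowed mismatches and several mappings per read. A tissue's files list 328 to 340 miRNAs. In each library the smallest step between CPM values was taken as 1 read, and 100% of values came out whole within 0.05 reads, which gave the totals of mapped reads and the reads for edgeR.

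Groups were compared by limma 3.58.1 in R 4.3.3 on log2(CPM + 1), with an intensity trend for miRNAs and none for arm ratios, so a fold change understates that of low values. The tissue fit held 15 tissue and diet means, and diet fits were made per tissue. Exact and 100000-resample permutation tests used numpy 2.4.6 and scipy 1.17.1. Shares of reads carry 95% Wilson intervals, for counting error only. On simulated data the tissue fit recovered 60 of 60 changed miRNAs of 289 and 6 of 6 changed arm ratios of 22 between rumen and duodenum. On the recovered reads, edgeR 4.0.16 (quasi-likelihood test) called 218 of 289 miRNAs between rumen and duodenum, where limma called 210, and 106 of 337 over the diets in jejunum, where limma called 80. Alternatives were other pseudocounts, a filter at 10 CPM, TMM and upper-quartile scaling, edgeR, a replicate block, single diets, and libraries left out (liver alfalfa hay replicate 2, rumen alfalfa hay replicates 4 and 6 and mammary gland alfalfa hay replicate 1 after the values were seen). The miRNAs named are both arms, the marker and inflammation lists, the 3 arm pairs nearest in mean ratio, and the 5 most like each arm by each measure. Other arm pairs were named after their values were seen. The members and lists were chosen with earlier results of these data known. No mature sequence is printed, because none was among the files used here. No pair of libraries held identical values.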

Additional observations from a re-analysis of the deposited data

Results flagged for a closer look

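The diet differences depended on the tissue for both arms and for their ratio, by the tissue by diet interaction in limma. The adjusted p was 0.00425 for miR-21-5p, 0.00277 for miR-21-3p and 6.20e-05 for the ratio. The same test passed for 45.7% of the 289 miRNAs and 50% of the 22 arm ratios, so a pass is not particular to miR-21. With TMM scaling miR-21-5p did not pass (limma adjusted p = 0.0703). In jejunum corn stover minus rice straw was 1.26 for miR-21-3p, against 0.08 in rumen, -0.05 in duodenum, 0.34 in liver and -0.54 in mammary gland, the last being -1.27 with TMM scaling.

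Of 45 sets of 6 samples tested for a sample far from the others by Dixon's criterion (15 groups, each with both arms and the log2 ratio), 4 held such a sample, and chance gives about 1 in 20. All 4 were in mammary gland. Under corn stover, replicate 3 had 51621 CPM of miR-21-5p, with the others between 34051 and 39248. Under alfalfa hay, replicate 2 had 253 CPM of miR-21-3p, with the others between 31.8 and 65.5. Under corn stover, replicate 5 had 117 CPM of miR-21-3p, with the others between 43.1 and 59.7, and its log2 ratio was 8.18, with the others between 9.28 and 9.80. These libraries held between 4778507 and 8833972 mapped reads, so none was among the shallowest.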

How the results depend on the processing

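The rumen differences of both arms kept their direction and their call under every alternative run, and so did the corn stover differences of miR-21-3p and the ratio in jejunum. Over the comparisons of tissues and diets, 514 alternative values kept their direction and their side of the threshold, 25 lost a call, 4 gained one, 7 turned and 5 counts moved by over 1.5 times. The cause was not tested.

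With upper-quartile scaling, the miR-21-5p difference of jejunum minus mammary gland was 0.12, and for miR-21-3p the values were -0.29 for duodenum minus liver, which turned, 0.29 for duodenum minus mammary gland, 0.25 for jejunum minus liver and 0.58 for liver minus mammary gland, which gained a call. That scaling moved the median of all miRNAs by -0.70 for rumen minus liver and by -0.89 for corn stover minus rice straw in mammary gland, and TMM scaling moved them by -0.43 and -0.72. For miR-21-3p, duodenum minus jejunum was -0.51 with TMM scaling and -0.53 with edgeR, and duodenum minus mammary gland was 0.14 with edgeR, without a call. The F test of miR-21-5p over the diets of jejunum gave 0.0741 with TMM scaling, 0.0698 with edgeR and 0.0524 with a replicate block, and its count of tissues with a diet call was then 0 under each. The interaction of miR-21-5p was 0.0703 with TMM scaling. With 5 CPM added, the ratio difference of duodenum minus mammary gland was 0.018 and turned.

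Among rice straw samples alone, miR-21-3p was called in 4 tissue pairs, with -0.15 for duodenum minus jejunum, 0.081 for duodenum minus mammary gland, 0.62 for jejunum minus liver, 0.23 for jejunum minus mammary gland and -0.39 for liver minus mammary gland, which turned. Their ratio differences were 0.18 for duodenum minus jejunum, and 0.60 and 0.43 for duodenum and jejunum minus mammary gland, which both turned. Among alfalfa hay samples alone, miR-21-3p was also called in 4 tissue pairs, with -0.072, 0.62, 0.23 and 0.70 for the first 4 of these contrasts. The miR-21-5p differences of duodenum and jejunum minus mammary gland were 0.45 and 0.43, and the ratio differences were -0.47 for rumen minus liver, 0.094 for duodenum minus jejunum and -0.27 for jejunum minus mammary gland, all without a call. Among corn stover samples alone, miR-21-5p had 0.39 for duodenum minus jejunum, which gained a call, 0.10 for duodenum minus mammary gland, and -0.29 for jejunum minus mammary gland, which turned. For miR-21-3p, liver minus mammary gland was 0.49 and gained a call. The ratio had -0.47 for duodenum minus mammary gland, which gained a call, and -0.29 for jejunum minus liver, which turned.

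With the shallowest jejunum library left out, alfalfa hay minus rice straw for miR-21-3p was -0.047 and turned, and corn stover minus alfalfa hay for miR-21-5p was -0.33 and passed (limma adjusted p = 0.0313). The relation of the arms in jejunum had r = 0.25 within diets, with the sign opposite to that over all its samples, which fall into clusters. Leaving out rumen alfalfa hay replicates 4 and 6, mammary gland alfalfa hay replicate 1, or liver alfalfa hay replicate 2, changed no call of a tissue or diet comparison. The replicate block changed no other call. The labels do not say that a number marks a cow, and the correlations did not settle it. Deviations of same-numbered samples of a diet in 2 tissues correlated over 0.1 in 82 of 180 pairs, with a median of 0.05 against -0.02 for other numbers. Of the 180, 54 correlated best with their own number, each among the 6 numbers of its diet, where chance gives 1 in 6. Same-numbered samples of a tissue from 2 diets come from different cows. They correlated over 0.1 in 15 of 30 pairs for rice straw and corn stover (median 0.10). The counts were 9 of 30 for rice straw and alfalfa hay (median 0.03) and 7 of 30 for alfalfa hay and corn stover (median -0.02). Between tissues of a diet the values were highest for duodenum and jejunum (14 of 18 over 0.1, median 0.18, and 11 of 18 best with their own number). Liver and mammary gland followed (12 of 18 over 0.1, median 0.13). Depth limited miR-21-3p most in mammary gland, where 49 reads lay behind the lowest count.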
